A study of Mus musculus with 8 samples.

Results

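The serpins are a family of proteins built on 1 shared fold, and in the mouse genome they are named by a clade letter. The members described here are the protein-coding genes of the deposited liver RNA table whose symbol begins with Serpin: 44 of its 24451 genes, 22 of them in clade A, 12 in clade B, 3 in clade E, 2 in clade F and 1 each in clades C, D, G, H and I. A further 5 rows with a Serpin symbol belong to another gene type and were not counted as members. Bulk RNA sequencing was done on the left lobe of the liver of mice of 2 genotypes, 4 with the hepatocyte knockout (Brap LKO) and 4 floxed controls without it (Brap F/F). All were C57BL/6, 18 wk old and without food for 6 h before death. Both groups carried loxP sites around exons 2 and 3 of Brap, and the Brap LKO mice also carried an Albumin-Cre transgene, which is expressed in hepatocytes. Cre therefore leaves Brap intact in most other cells of the lobe, and RNA of all cells was read together. The labels give no sex, and the study's methods name males for its mouse work, beside pilot work in both sexes.

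Most serpins inhibit serine proteases, and a few inhibit cysteine proteases. The protease cuts an exposed loop of the serpin, the reactive centre loop, the serpin then changes shape, and the protease stays bound to it. The liver makes most of the serpins of blood plasma, among them alpha-1-antitrypsin, antithrombin, C1 inhibitor and alpha-2-antiplasmin. Other members carry hormones (Serpina6 and Serpina7) or help collagen to fold (Serpinh1), and clade B members act mainly inside cells.

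Rodents carry several copies of genes that are single in humans, and the loop is where such copies differ most. The 5 copies of the alpha-1-antitrypsin gene, Serpina1a to Serpina1e, lie on the minus strand of chromosome 12 (mm10). Serpina1e, whose level differed most between livers of the abundant members, was found at chr12:103946931-103958975, and Serpina1b at chr12:103728156-103830373. Their coding sequence from the hinge of the reactive centre loop to the serpin signature (the motifs G-[TS]-E-[AV] and P-F-[LIVMFY]-[LIVMFYC] in the translation) was read from the GENCODE transcript with the longest coding sequence. It is shown because reads of the copies are told apart by such differences. Capitals mark bases that differ from the most common base of the 5 copies. Where bases tied as most common, a single base was kept in lower case and the others were marked.
Serpina1a: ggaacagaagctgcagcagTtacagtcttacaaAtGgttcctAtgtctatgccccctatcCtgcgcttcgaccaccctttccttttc
Serpina1b: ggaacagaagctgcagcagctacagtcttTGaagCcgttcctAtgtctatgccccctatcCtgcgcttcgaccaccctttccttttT
Serpina1c: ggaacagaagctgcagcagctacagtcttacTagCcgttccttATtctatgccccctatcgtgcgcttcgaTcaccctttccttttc
Serpina1d: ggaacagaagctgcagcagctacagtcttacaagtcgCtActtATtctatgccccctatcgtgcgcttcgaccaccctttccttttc
Serpina1e: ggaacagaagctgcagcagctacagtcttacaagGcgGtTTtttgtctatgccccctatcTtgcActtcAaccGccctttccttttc
Each stretch has 87 bases. Serpina1e had 8 marked bases, against 4 to 6 in the other copies, whose counts depend in part on how ties were marked. Serpina1e differed from each of the other copies at 10 to 12 positions, whereas the other 4 differed from each other at 5 to 10.

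The Serpina3 copies form a cluster on the same chromosome. The same stretch is given for 3 copies on its plus strand: the most abundant, Serpina3k (chr12:104338486-104346144), for Serpina3m (chr12:104338486-104394257), which fell in the Brap LKO livers, and for Serpina3n (chr12:104406729-104414329). Capitals mark the bases that an alignment did not pair with the same base of Serpina3k.
Serpina3k: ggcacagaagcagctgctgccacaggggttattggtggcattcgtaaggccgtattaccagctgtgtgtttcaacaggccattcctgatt
Serpina3m: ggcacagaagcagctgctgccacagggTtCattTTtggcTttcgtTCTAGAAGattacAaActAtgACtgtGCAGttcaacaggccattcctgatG
Serpina3n: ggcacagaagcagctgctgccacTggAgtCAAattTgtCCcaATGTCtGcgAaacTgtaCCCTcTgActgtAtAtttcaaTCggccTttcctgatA
The first bases, which encode the hinge, were the same in the 3 genes, and the capitals (23 in Serpina3m, 28 in Serpina3n) followed behind them. The annotated exons of Serpina3k and Serpina3m share 60 bases on that strand.

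Reads of 50 bases can be placed on 1 copy only where they cover such a difference. Of all windows of 50 bases in the exons of Serpina1c, 79.3% were also found in the exons of another gene. This share was 57.6% for Serpina1a, 50.9% for Serpina1d, 34.6% for Serpina1e and 29.5% for Serpina1b, so the split of reads among these copies is uncertain. It was 19.1% for Serpina3m, 14.0% for Serpina3k, 0.303% for Serpine2 and 0% for Serpina7 and Serpinh1. Exons of Serpina1c, Serpinb6a and Serpinc1 also overlap genes on the opposite strand, and the use of strand in the counting is not given in the sources used here. The overlap covers 31.5%, 29.3% and 34.4% of their exon bases. If strand was not used, reads on those bases could not be told apart from reads of the overlapping partners. Serpina11 shares 40.8% of its exon bases with Gm28577 on the same strand, a gene absent from the deposited table.

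**Figure D1:**
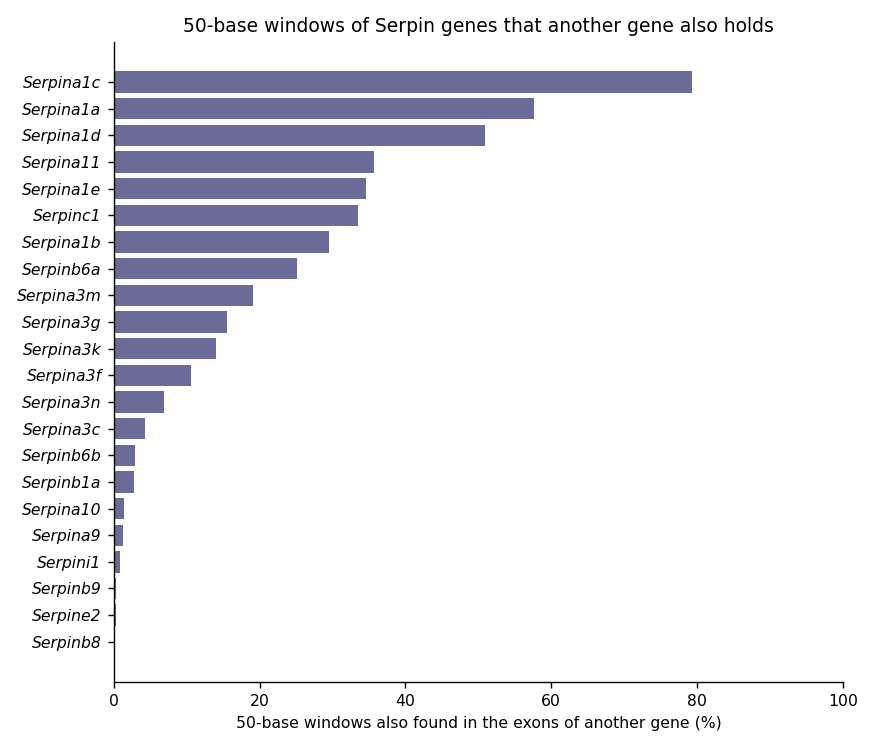
Bars show, for the 22 tested Serpin genes in which it was above 0, the share (%, from 0 to 100) of the 50-base windows of a gene's exons that also occur in the exons of another gene. The 5 Serpina1 copies lie between 29.5% and 79.3%, and Serpine2 lies at 0.303%.

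The values are reads counted on each gene, divided by a size factor for each liver (normalized counts), and 26280884 to 33313914 reads per liver were counted on genes. Brap itself ranged between 3641 and 4203 in the knockout, 3994 and 4410.2 in the control livers, a difference that missed the threshold (log2 fold change -0.07, adjusted p = 0.631, limma). A count over the whole gene also holds reads on the exons that Cre does not remove, so it does not check the labels. The hepatocyte markers were present at high level, with Alb between 1438250.3 and 3058028 normalized counts.

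Of the 44 members, 32 reached the minimum mean of 5 normalized counts and were tested. Normalized counts were compared as log2(normalized count + 1) with limma, fitted over the 15352 genes that passed this minimum, and p-values were adjusted over all of them by the Benjamini-Hochberg method. A fold change on this scale understates the change of genes with few reads. A fall in whole liver can come from fewer cells of a type or from less RNA in each cell, and these cannot be told apart. Serpine2, Serpina7 and Serpina3m fell in the Brap LKO livers at an adjusted p under 0.05, and 0 members rose. Over all tested genes, 0.104% were called lower and 0.664% higher. At an unadjusted p under 0.05, limma gave 4 members lower and 5 higher, against 6.59% and 9.23% of all tested genes, or 15.8% in either direction. edgeR on the recovered reads gave 3 lower and 0 higher, and DESeq2 gave 3 lower and 1 higher (Serpinh1). Over all tested genes DESeq2 called several times as many genes as limma, as counted in the last section. A lone DESeq2 call in a list below therefore says little. The median log2 fold change was 0.05 over the 32 members and -0.01 over all tested genes.

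Serpin transcripts made up 2.91% ± 0.258 (SD, n = 4) of all counted reads in the knockout livers, against 2.51% ± 0.771 (SD, n = 4) in the controls. Clade A took 83.1% ± 1.42 (SD, n = 4) and 80.4% ± 4.37 (SD, n = 4) of these reads. The ranges of the groups overlapped in both measures. To compare genes, each level was divided by the length of the transcript with the longest coding sequence. Serpina1e had the highest mean level over the 8 livers, 150048 normalized counts per kilobase, followed by Serpina3k with 109475 and Serpina1b with 58291. Between 39403 and 27607 per kilobase stood Serpina1d and Serpina1c, and Serping1, Serpina1a, Serpinc1, Serpinf2 and Serpinf1 stood between 15672 and 9859. The clade B genes were far lower, with at most 205 per kilobase, in Serpinb6a. The annotated Serpinc1 transcript has a length of 4970 bases, and its level per kilobase depends on that length.

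**Figure D2:**
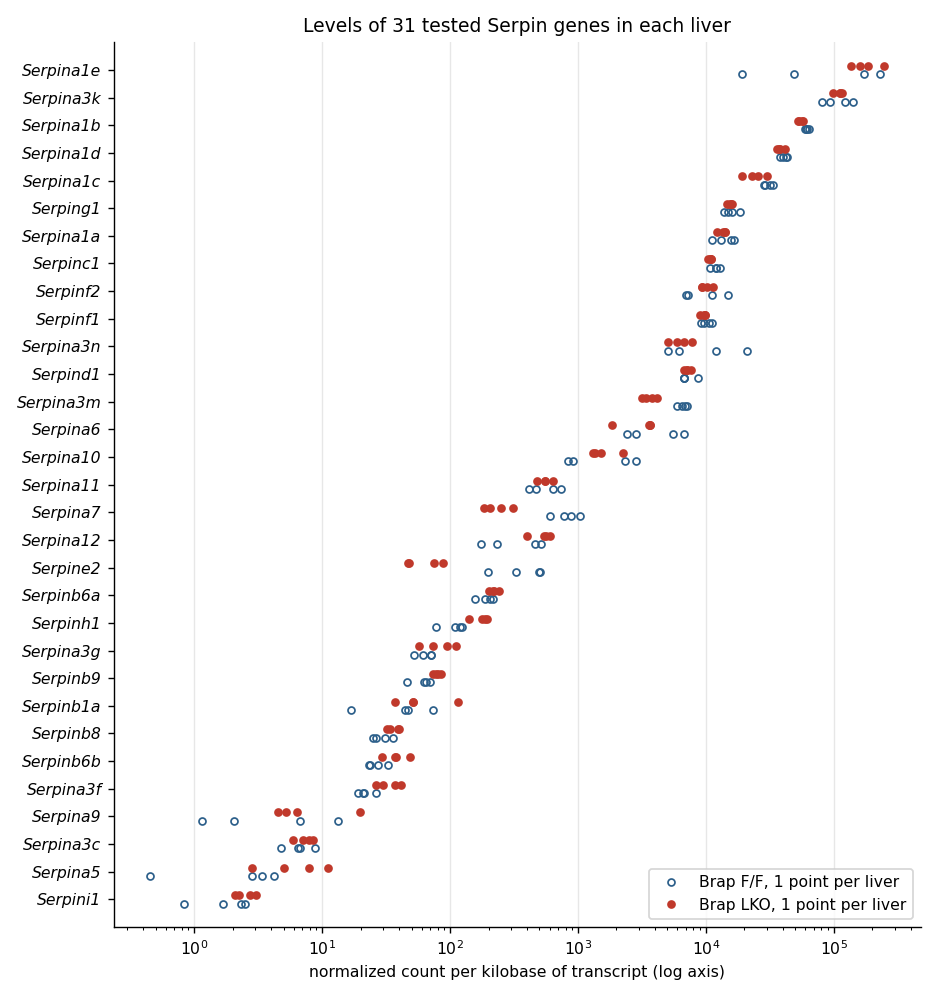
Each point is 1 liver, with the normalized count per kilobase of transcript on a log axis for 31 of the 32 tested Serpin genes, ordered by their mean. Open blue points are Brap F/F and filled red points Brap LKO. Serpina1e leads at a mean of 150048 with 2 Brap F/F livers far to the left, and the red points of Serpine2 and Serpina7 lie to the left of all blue ones.

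The other 12 members had means of at most 4.74 normalized counts, and no liver was above 9.36. They were Serpina3a, Serpina3b, Serpina3i and Serpina3j of clade A, Serpinb1b, Serpinb1c, Serpinb2, Serpinb6c, Serpinb6e, Serpinb7 and Serpinb9b of clade B, and Serpine3. In 5 of them every liver had at most 3 reads, which is what a count of 0 allows, and these floors cover counting error only.

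**Figure D3:**
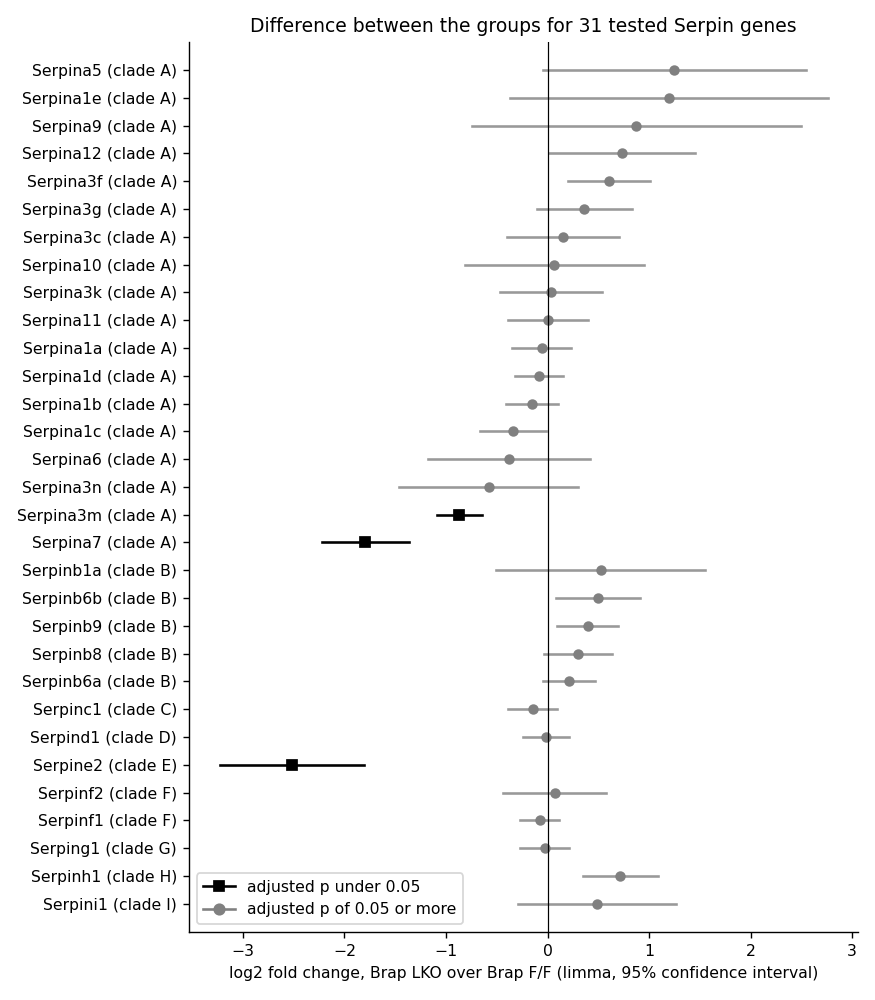
Log2 fold changes of Brap LKO over Brap F/F with 95% confidence intervals from limma are shown for 31 of the 32 tested Serpin genes, by clade. Black squares mark the 3 genes with an adjusted p under 0.05, Serpine2 at -2.52, Serpina7 at -1.79 and Serpina3m at -0.87.

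Serpine2, also called protease nexin-1, inhibits thrombin and plasminogen activators at cell surfaces. It had 104, 106, 165 and 193 normalized counts in Brap LKO replicates 1 to 4 and 1111, 722, 440.5 and 1098 in Brap F/F replicates 1 to 4. All Brap LKO livers were low, and the lowest control, replicate 3, still had more than any of them. The means were 142 ± 44.4 and 843 ± 323 (SD, n = 4), and the log2 fold change was -2.52 (95% interval -3.23 to -1.81, adjusted p = 0.0155, limma), or 5.73-fold (95% interval 3.50 to 9.37) lower. A two-sided exact permutation test gave p = 0.0286, the smallest that 4 against 4 livers allow, and gave the same for every other gene whose groups did not overlap. Without Brap LKO replicate 1 the adjusted p was 0.0615, and without Brap F/F replicate 2 it was 0.0517, both by limma. Fibroblasts are also known to express Serpine2, and of 11 markers of stellate cells and fibroblasts 9 had a value above 0, with a median log2 fold change of 0.51. Of these markers 6 had an unadjusted p under 0.05, and limma called 1, edgeR 2 and DESeq2 3. Their summed level was 12837 to 18126 normalized counts over the Brap LKO livers and 8707 to 16199.9 over the controls, and none was at 0 in all livers. The part of these cells in the Serpine2 values was not tested.

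Serpina7 encodes thyroxine-binding globulin, a carrier of thyroid hormone in plasma that has lost protease inhibition. It is X-linked (chrX:139079257-139085236, minus strand, mm10). The Brap LKO livers had 433, 477, 586 and 719 normalized counts, and the Brap F/F livers had 2051, 1825, 2402 and 1410.0. The highest Brap LKO liver was far under the lowest control. The mean was 554 ± 127 against 1922 ± 416 (SD, n = 4), a log2 fold change of -1.79 (95% interval -2.22 to -1.37, adjusted p = 0.00665, limma), or 3.47-fold (95% interval 2.58 to 4.67) lower. The call was kept when any 1 liver was left out (adjusted p from 0.00447 to 0.0312, limma).

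The other hormone carrier is Serpina6, corticosteroid-binding globulin. Its normalized counts were 5809.6, 5873, 5872 and 2939 in the Brap LKO livers, against 4529.9, 8940.5, 10756 and 3890.5 in the Brap F/F livers. Brap LKO replicate 4 was the lowest of the 8, and Brap F/F replicates 2 and 3 were the highest. Its log2 fold change was -0.38 (95% interval -1.18 to 0.41, adjusted p = 0.622, limma), so a difference was not shown.

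Serpina3m was the 3rd gene to fall. It belongs to the murine copies of the alpha-1-antichymotrypsin gene. Normalized counts were 5282, 5616, 6891 and 6258 in the Brap LKO livers against 11341, 10777, 9864 and 11751 in the controls. Each group held together closely, with SDs of 712 and 817 around means of 6012 and 10933 (n = 4). The log2 fold change was -0.87 (95% interval -1.09 to -0.65, adjusted p = 0.00906, limma), or 1.82-fold (95% interval 1.56 to 2.13) lower. This call, too, was kept with each liver left out (adjusted p from 0.0136 to 0.0424, limma). Serpina3k, the neighbour with which Serpina3m shares most of its ambiguous windows, had a log2 fold change of 0.03 (95% interval -0.47 to 0.54).

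By the animal number of its label, each liver belongs to a lower series (Brap LKO replicates 1 to 3 and Brap F/F replicate 1) or a higher series (Brap LKO replicate 4 and Brap F/F replicates 2 to 4). The 3 genes that fell were lower in the Brap LKO livers within each. For Serpine2 the lower series had 104 to 165 against 1111, and the higher series 193 against 440.5 to 1098. For Serpina7 the values were 433 to 586 against 2051 and 719 against 1410.0 to 2402. For Serpina3m they were 5282 to 6891 against 11341 and 6258 against 9864 to 11751. Each series has only 1 liver in 1 of its groups, and no test was run within a series. With the series as a covariate the 3 calls were kept.

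The promoters of Serpina7 and Serpine2, the genes with the largest falls, were read from RefSeq (GRCm38.p6, 250 bases before to 50 bases after the start, 5′ to 3′ on the minus strand). They were searched on both strands for TTCNNNGAA (STAT), GGAATG (TEAD), TGANTCA (AP-1) and GTTAAT (HNF1), and capitals mark matches. Promoters were listed for 36 of the 44 members, and none was read for Serpina3m.
Serpina7, chrX:139085187-139085486: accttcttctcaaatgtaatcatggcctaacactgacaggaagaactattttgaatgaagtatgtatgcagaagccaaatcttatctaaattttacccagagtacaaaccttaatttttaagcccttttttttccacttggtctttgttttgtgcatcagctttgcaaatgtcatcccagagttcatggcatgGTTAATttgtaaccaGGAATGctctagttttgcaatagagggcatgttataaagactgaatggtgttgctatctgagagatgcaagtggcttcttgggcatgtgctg
Serpine2, chr1:79858616-79858915: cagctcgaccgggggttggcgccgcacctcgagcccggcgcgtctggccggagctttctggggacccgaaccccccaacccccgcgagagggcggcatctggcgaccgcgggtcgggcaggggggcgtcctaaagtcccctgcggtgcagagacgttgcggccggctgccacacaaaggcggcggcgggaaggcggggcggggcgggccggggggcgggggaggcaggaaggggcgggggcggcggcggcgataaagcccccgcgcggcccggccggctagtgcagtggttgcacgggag
The Serpina7 window held GTTAAT 57 bases and GGAATG 42 bases before the start, and the Serpine2 window held no match. GGAATG was found in 8 of the 36 members and in 14.7% of all 32851 promoters in the table, GTTAAT in 8 members and 7.10%, TGANTCA in 7 members and 7.81%, and TTCNNNGAA in 6 members and 8.30%. The 8 with GTTAAT include Serpina1a to Serpina1e, and the 7 with TGANTCA include Serpina1a to Serpina1d. Promoters of the other copies were 92.6% to 98.4% identical to that of Serpina1b over the aligned bases. These copies are therefore not separate cases, and the counts are not read as an excess in the family. Of the tested members, Serpina3f, Serpina3g, Serpina11 and Serpinb6a held TTCNNNGAA. A match describes letters only.

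Beyond the 3 genes that fell, 4 members had groups that did not overlap. In all, 7 of the 32 tested members (21.9%) did not overlap, against 9.87% of all tested genes: 4 lower, where all tested genes gave 4.39%, and 3 higher, where they gave 5.48%. Serpinh1, Serpina3f and Serpinb9 were higher in every Brap LKO liver than in any control and Serpina1b lower, and none of the 4 passed the adjusted test.

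Serpinh1, also known as Hsp47, is not a protease inhibitor but a chaperone of collagen in the endoplasmic reticulum. Its normalized counts were 413, 313, 396 and 431 in the Brap LKO livers, against 263, 171, 243 and 275 in the Brap F/F livers. Brap LKO replicate 2 was the lowest of its group, just above the highest control. The log2 fold change was 0.72 (95% interval 0.35 to 1.08, adjusted p = 0.0876, limma). DESeq2 on the recovered reads called it (adjusted p = 0.00397), as did limma after scaling to the same total per liver (adjusted p = 0.0398). Of 14 collagen chains and enzymes of its pathway, 11 had a value above 0, with a median log2 fold change of 0.69, and 9 had an unadjusted p under 0.05, a share to be read against the 15.8% of all genes. limma and edgeR each called 3. DESeq2, which called several times as many genes as limma over all tested genes, called 7 (Col1a1, Col1a2, Col3a1, Col4a1, Col4a2, Col5a2 and P4ha2). Col4a1 and Col4a2, the chains of basement membrane collagen, rose, with log2 fold changes of 0.67 and 0.86 (adjusted p = 0.0494 and 0.0177, limma). P4ha2, a subunit of the enzyme that hydroxylates collagen proline, fell, with -0.80 (adjusted p = 0.0494, limma). Stellate cells are the main collagen-producing cells of the liver, and the stellate marker Pdgfrb rose from 245 ± 41.7 to 466 ± 103 normalized counts (SD, n = 4; log2 fold change 0.91, adjusted p = 0.0494, limma). Of 11 tested stellate cell and fibroblast markers, 6 had an unadjusted p under 0.05, edgeR called 2, and DESeq2 called 3 (Bgn, Lum and Pdgfrb). For Serpinh1 and for 6 of the 14 collagen chains and enzymes, Brap F/F replicates 2 and 3 were the 2 lowest livers. They were the 2 highest for 0 of the 14. The shares over all tested genes were 11.8% and 14.4%. The part of stellate cell numbers, or of such differences between livers, in the Serpinh1 value was not tested.

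Serpina3f, another copy of the Serpina3 cluster, had 91.1, 81.6, 58.7 and 66.6 normalized counts in the Brap LKO livers, against 46.7, 58.0, 46.3 and 42.2 in the Brap F/F livers. Brap LKO replicate 3 and Brap F/F replicate 2 almost met. Its log2 fold change was 0.60 (95% interval 0.20 to 1.01, adjusted p = 0.164, limma). Serpina3g, its neighbour, ranged from 103 to 201 and from 94.6 to 129 normalized counts in the same groups, which overlapped (log2 fold change 0.36, adjusted p = 0.429, limma).

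Serpinb9, which inhibits granzyme B and protects cells from cytotoxic granules, had 274, 262, 252 and 288 normalized counts in the Brap LKO livers, against 220.1, 157, 214 and 235 in the controls. The groups came close but did not overlap, and the log2 fold change was 0.39 (95% interval 0.10 to 0.69, adjusted p = 0.206, limma). The 5 tested clade B genes, Serpinb1a, Serpinb6a, Serpinb6b, Serpinb8 and Serpinb9, had values above 0 from 0.21 to 0.52, with 0 called by limma and 2 (Serpinb6b and Serpinb9) at an unadjusted p under 0.05, and neither edgeR nor DESeq2 called one. Serpinb6a, an inhibitor of cathepsin G, had 0.21 (95% interval -0.05 to 0.47), and Serpinb8, an inhibitor of furin, 0.30 (-0.04 to 0.64). Clade B serpins are known in white blood cells, and 8 of 9 tested lymphocyte markers and 11 of 12 markers of macrophages and monocytes were also above 0, with medians of 0.56 and 0.29. In each of these lists 0 were called by limma or edgeR, 2 had an unadjusted p under 0.05, and DESeq2 called 1, Ms4a1 and Ccr2 respectively. Their summed levels were 161 to 249.6 normalized counts over the Brap LKO livers and 113 to 181 over the controls, and 6852 to 12214 normalized counts over the Brap LKO livers and 7173 to 10067 over the controls. The part of these cells in the clade B values was not tested. Serpinb1a, an inhibitor of neutrophil elastase, was the most uneven of the 5, with 221 in Brap LKO replicate 1 and 32.4 in Brap F/F replicate 4 at its ends. All 3 tested neutrophil markers were above 0, with a median of 0.41 and 0 called by the 3 tools or at an unadjusted p under 0.05, and their list summed to 74.9 to 130.0 normalized counts over the Brap LKO livers and 36.8 to 111 over the controls.

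**Figure D4:**
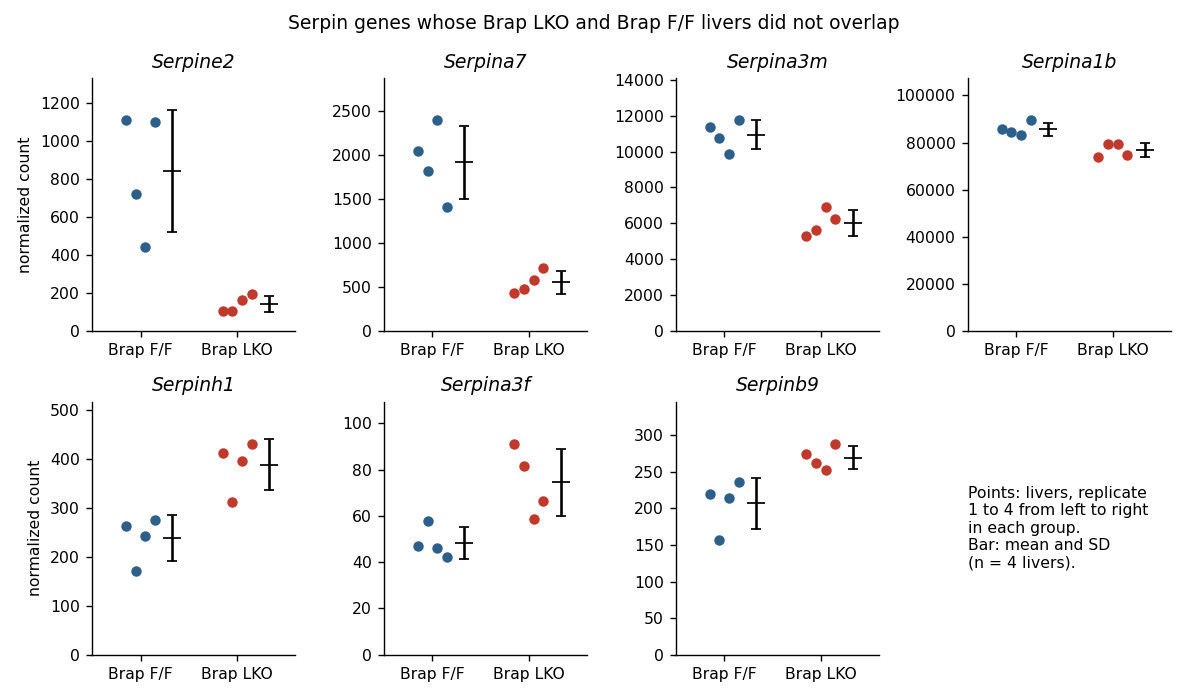
Normalized counts per liver (linear axes from 0) are plotted for the 7 Serpin genes whose groups did not overlap, with the mean and SD (n = 4) as a bar. Serpine2, Serpina7 and Serpina3m lie lower in the Brap LKO livers by the widest margins, and Serpina1b (lower), Serpinh1, Serpina3f and Serpinb9 (higher) by narrow ones.

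Alpha-1-antitrypsin is known as an inhibitor of neutrophil elastase in plasma. Which of the mouse copies inhibit this protease was not tested. Serpina1b had 73705, 79579, 79376 and 74892 normalized counts in the Brap LKO livers, against 85539.9, 84356, 83089 and 89522 in the controls. The groups did not overlap, but the log2 fold change was -0.16 (95% interval -0.41 to 0.10, adjusted p = 0.526, limma), and its sign turned under quantile normalization (0.04) and was 0.00 with the same total per liver. Serpina1a, Serpina1c and Serpina1d had log2 fold changes of -0.06, -0.34 and -0.09, and their groups overlapped. For Serpina1c the 95% interval was -0.66 to -0.02 (unadjusted p = 0.0415, adjusted p = 0.298, limma). Added over Serpina1a to Serpina1d, the highest Brap F/F liver had 1.10 times the lowest, and the highest Brap LKO liver 1.15 times the lowest.

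Serpina1e varied far more than its neighbours. It had 175546, 208652, 241659.8 and 319969 normalized counts in Brap LKO replicates 1 to 4 and 224317, 62894, 24669 and 296796 in Brap F/F replicates 1 to 4. Brap F/F replicates 2 and 3 were the lowest of the 8, and the other controls lay among the Brap LKO livers. The highest Brap F/F liver had 12.03 times the lowest, and only 15 of 4016 genes with a mean of at least 1000 normalized counts (0.374%) reached that ratio, whose median was 1.25. In the Brap LKO livers the ratio was 1.82. Serpina1e made up 36.1% ± 22.4 (SD, n = 4) of the reads on the 5 copies in the Brap F/F livers and 55.4% ± 6.95 (SD, n = 4) in the Brap LKO livers. Its log2 fold change was 1.19 (95% interval -0.37 to 2.76, adjusted p = 0.433, limma), and without Brap F/F replicates 2 and 3, left out after seeing the data, it was -0.16. With the 5 copies added together, which removes the split of reads among them, the log2 fold change was 0.31 (95% interval -0.41 to 1.02).

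The promoter windows of Serpina1b and Serpina1e are shown because the copies were so unequal in spread. The RefSeq start of Serpina1e lies further downstream in the shared sequence, and over 248 aligned bases 98.4% were identical. The Serpina1b window lies inside the annotated span of that gene, which also holds Serpina1d. Capitals mark matches as above.
Serpina1b, chr12:103738140-103738439: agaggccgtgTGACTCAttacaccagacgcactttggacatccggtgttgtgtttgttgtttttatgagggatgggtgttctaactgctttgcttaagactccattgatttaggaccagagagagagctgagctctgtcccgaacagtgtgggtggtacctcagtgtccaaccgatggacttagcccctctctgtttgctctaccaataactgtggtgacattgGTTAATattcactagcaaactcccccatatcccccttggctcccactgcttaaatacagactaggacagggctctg
Serpina1e, chr12:103956848-103957147: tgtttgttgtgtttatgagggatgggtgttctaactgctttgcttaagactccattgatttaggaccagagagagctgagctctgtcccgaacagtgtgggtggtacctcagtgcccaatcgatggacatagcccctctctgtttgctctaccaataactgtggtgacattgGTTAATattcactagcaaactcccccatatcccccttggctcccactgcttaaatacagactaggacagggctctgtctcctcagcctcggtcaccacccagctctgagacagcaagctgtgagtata
Both windows held GTTAAT, 26 bases before the start in Serpina1b and 78 bases before it in Serpina1e. TGANTCA was found in Serpina1b, 240 bases before the start, and in Serpina1a, Serpina1c and Serpina1d, and its place in the shared sequence lies outside the Serpina1e window.

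Sex-biased liver genes were uneven among the same controls. Mup20, a male pheromone carrier, had 22114, 10503, 7995 and 32018 normalized counts in Brap F/F replicates 1 to 4 and 33302, 36319, 36852 and 37926 in the Brap LKO livers. Cyp2b9, a cytochrome higher in females, had 84.4, 831, 2406 and 10.8 in the Brap F/F livers and 57.4, 53.5, 37.4 and 28.1 in the Brap LKO livers. Brap F/F replicates 2 and 3 were the lowest for Mup20 and the highest for Cyp2b9. These livers were the 2 lowest of all 8 for 7 of 12 tested male-biased genes and the 2 highest for 6 of 8 tested female-biased genes. Other members of the lists went another way: the male-biased Elovl3 was highest in the same livers (5237 and 3396, against 1381 to 2753 in the other 6). Cyp4a12a and Cyp4a12b, also male-biased, were highest among the controls in replicate 2 (6098 and 1735) and lowest in replicate 4 (1917 and 931). Elovl3 and both Cyp4a12 genes were chosen after their values were seen. Of 12 male-biased genes, 11 had a value above 0 (median 0.54), with 0 called by limma, 3 at an unadjusted p under 0.05 and 0 by edgeR or DESeq2. Their sum was 153577 to 164251 normalized counts over the Brap LKO livers and 81853 to 173415 over the controls. Of 8 tested female-biased genes, 6 were below 0 (median -0.35), with 0 called by limma or edgeR, 0 at an unadjusted p under 0.05 and 1 by DESeq2 (Cyp2b9). Their sum was 833 to 2192 normalized counts over the Brap LKO livers and 266 to 5214 over the controls. The pattern was not particular to sex-biased genes. Brap F/F replicates 2 and 3 were also the 2 lowest livers for 7 of 17 acute phase genes, and the 2 highest for 0. The shares over all tested genes were 11.8% and 14.4%. The part of such differences between livers in the Serpina1e values was not tested.

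**Figure D5:**
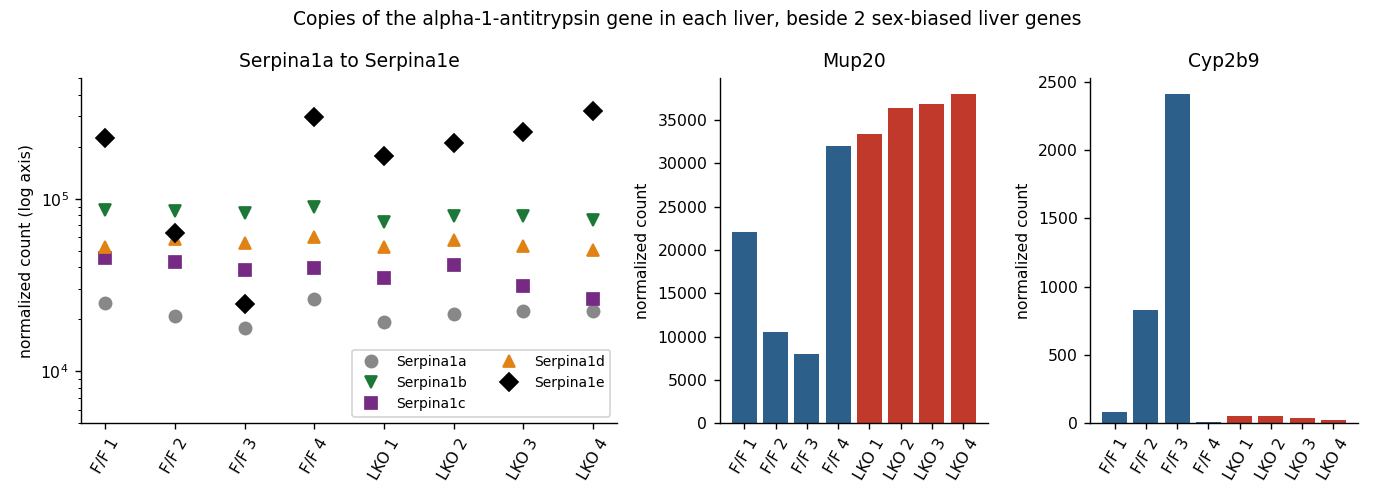
The left panel plots the normalized counts of Serpina1a to Serpina1e in each liver on a log axis, and the other panels plot Mup20 and Cyp2b9 as bars from 0 (blue, Brap F/F; red, Brap LKO; 1 bar per liver). Serpina1e falls to 62894 and 24669 in Brap F/F replicates 2 and 3, where Mup20 is lowest and Cyp2b9 highest, and the other copies vary little.

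The same controls stood apart for further members. Brap F/F replicates 2 and 3 were the 2 lowest of the 8 livers for 9 of the 32 tested members (Serpina1e, Serpina3k, Serpina9, Serpina10, Serpina11, Serpina12, Serpinb9, Serpinf2 and Serpinh1) and the 2 highest for 3 (Serpina6, Serpinc1 and Serpinf1). Over all tested genes they were the 2 lowest in 11.8% and the 2 highest in 14.4%. For the 17 members with a mean of at least 1000 normalized counts, the highest liver of each group was divided by the lowest. This ratio was at least 2 for 6 members in the Brap F/F livers and for 0 in the Brap LKO livers. The share of all genes with such a ratio was not counted. Median ratios in Brap F/F and Brap LKO were 1.48 and 1.22 for these members, against 1.25 and 1.17 for all 4016 genes at that level. The ratio was larger in the Brap F/F group for 13 of the 17, and for 68.9% of all genes at that level.

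Serpina3n is the Serpina3 copy best known as an acute phase gene. Its normalized counts were 10491, 12359, 13896 and 16141 in the Brap LKO livers, against 24625, 12798, 10538 and 43386 in the Brap F/F livers. Brap F/F replicates 4 and 1 were high and the other controls lay among the Brap LKO values. Its log2 fold change was -0.58 (95% interval -1.46 to 0.30, adjusted p = 0.497, limma). Without Brap F/F replicates 2 and 3 it was -1.32 (adjusted p = 0.0442, limma), but these are the 2 lowest controls for this gene and were left out after their values were seen, so that choice fixes a larger fall. Fga, a fibrinogen chain and the most abundant gene of the acute phase list, had 216128, 122392, 126289 and 347272 normalized counts in the Brap F/F livers and 118317, 159708, 138142 and 262931 in the Brap LKO livers, with replicates 4 and 1 again the highest controls. Of 17 acute phase genes, 4 were above 0 and 13 below (median -0.15), with 0 called by limma or edgeR, 1 at an unadjusted p under 0.05 and 1 called by DESeq2 (Il1r1). Their sum was 506636 to 959633 normalized counts over the Brap LKO livers and 503297 to 1316614 over the controls. The part of an acute phase response in the Serpina3n values was not tested.

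Serpina3k, a kallikrein inhibitor of rodent plasma, had 204634, 228351, 231126 and 237145 normalized counts in the Brap LKO livers, against 252264, 192239, 165789 and 289974 in the Brap F/F livers, and the controls spanned all the Brap LKO livers. With the 10 Serpina3 members added together the log2 fold change was -0.04 (95% interval -0.58 to 0.50). Serpina3c was detected at 10.5 to 19.4 normalized counts.

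The inhibitors of clotting, fibrinolysis and complement were abundant and close between the groups. Antithrombin (Serpinc1), the main inhibitor of thrombin, had 51585 to 54918 normalized counts in the Brap LKO livers, against 53481 to 64589 in the controls, with a log2 fold change of -0.15 (95% interval -0.39 to 0.09). Heparin cofactor II (Serpind1), which also inhibits thrombin, had -0.01 (-0.24 to 0.21). C1 inhibitor (Serping1), which controls complement and kallikrein, had -0.03 (-0.27 to 0.21). For these 3 the intervals stayed within 0.4 of 0 on the log2 scale. Alpha-2-antiplasmin (Serpinf2), the inhibitor of plasmin, had 0.07 (-0.44 to 0.58), and its controls ranged from 15381 to 32408 against 20479 to 25001 in the Brap LKO livers. Serpinf1, or pigment epithelium-derived factor, which does not inhibit proteases, had -0.08 (-0.27 to 0.12).

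Serpina10, the protein Z-dependent inhibitor of clotting factor X, was uneven: 4601, 5311, 4758 and 7906 normalized counts in the Brap LKO livers, against 8123, 2944, 3214 and 9993 in the Brap F/F livers, where replicates 1 and 4 were high and 2 and 3 low. Its log2 fold change was 0.06 (95% interval -0.82 to 0.95). Serpina12, or vaspin, a secreted inhibitor of kallikrein 7, had 1998, 2086, 1479 and 2232 normalized counts in the Brap LKO livers, against 1693, 649.9, 859.9 and 1885 in the controls. Here, too, Brap F/F replicates 2 and 3 were low, and the log2 fold change was 0.74 (95% interval 0.02 to 1.46, adjusted p = 0.308, limma). Serpina5, the protein C inhibitor, had few reads in these livers, from 0.981 to 23.9 normalized counts, and a log2 fold change of 1.25 with a wide interval (-0.05 to 2.54). Serpini1, or neuroserpin, was at 3.42 to 12.5 normalized counts (0.49, -0.29 to 1.26).

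The proteases that serpins act on and their partners were read from the same fit. Of 8 coagulation proteases, 9 tested complement proteases and 3 tested granule proteases, 0 were called by limma, edgeR or DESeq2, and 0, 1 and 0 had an unadjusted p under 0.05. Thrombin itself (F2) had 55009 ± 1179 normalized counts in the Brap LKO livers, against 60878 ± 2887 in the controls (SD, n = 4). The F2 groups did not overlap, as in 4.39% of all tested genes in that direction. Its log2 fold change was -0.15 (adjusted p = 0.508, limma). Of 5 fibrinolysis genes, among them urokinase (Plau, log2 fold change 0.26) and plasminogen (Plg, near 0), 0 were called by limma or edgeR, 2 had an unadjusted p under 0.05, and DESeq2 called 2 (Hgfac and Plat). Tissue plasminogen activator (Plat) had 37.3, 17.8, 36.4 and 65.5 normalized counts in the Brap LKO livers, against 13.7, 9.15, 9.46 and 19.6 in the controls, with a log2 fold change of 1.45 (unadjusted p = 0.00457, adjusted p = 0.129, limma). Brap LKO replicate 2 lay below the highest control. Hgfac, the protease that activates hepatocyte growth factor, had 7432, 7136, 7269 and 6710.3 in the Brap LKO livers, against 8401, 8348, 8472 and 9431 in the controls, and these groups did not overlap. Its log2 fold change was -0.28 (unadjusted p = 0.00296, adjusted p = 0.107, limma). Of 8 membrane serine proteases, 0 were called by limma or edgeR, 2 had an unadjusted p under 0.05, and DESeq2 called 1 (Tmprss4). Of 9 cysteine proteases, 0 were called by any of the 3 tools, and 3 had an unadjusted p under 0.05.

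Protease inhibitors outside the family, such as Pzp and Ahsg, gave 0 calls among 22 tested by limma or edgeR, with 4 at an unadjusted p under 0.05, and 1 by DESeq2 (Spint1). Of these, 17 were below 0, with a median of -0.10. Cofactors and clearance receptors of serpins, among them vitronectin (Vtn) and the receptor Lrp1, gave 0 calls among 10 by limma or edgeR, with 3 at an unadjusted p under 0.05, and 1 by DESeq2 (Sdc4). Of 11 genes for the export of alpha-1-antitrypsin from the endoplasmic reticulum, 10 were below 0 (median -0.09), with 0 at an unadjusted p under 0.05 and 0 called by any tool. The median over all tested genes was -0.01.

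Among the other cell markers, the hepatocyte list had 4 of 9 tested genes above 0 (median -0.19), with 0 called by the 3 tools and 1 at an unadjusted p under 0.05, and summed to 2467862 to 3346918 normalized counts over the Brap LKO livers and 3031344 to 4378537 over the controls. All 8 tested cholangiocyte markers were above 0 (median 0.83), and the chloride channel Cftr rose from 1.03 ± 0.859 to 14.1 ± 5.38 normalized counts (SD, n = 4; log2 fold change 2.91, adjusted p = 0.0331, limma). In the controls Cftr lay near the floor, and it reached the minimum mean of 5 only through the Brap LKO livers. Its call is therefore not read as support for the list. Of these markers, 5 had an unadjusted p under 0.05, limma and edgeR called 1 (Cftr), and DESeq2 called 2 (Cftr and Epcam). Their sum was 1942 to 3797 normalized counts over the Brap LKO livers and 1139.5 to 2172 over the controls. The 10 sinusoidal endothelial markers were above 0 as well, with a median of 0.16 and 0 called by the 3 tools or at an unadjusted p under 0.05. No marker in the table was at 0 in all 8 livers. The part of these cells in the values of the Serpin genes was not tested.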

How the data were processed

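The authors sequenced single-end reads of 50 bases from each of the 8 livers and aligned them to mm10 with STAR 2.6.0c (submitters' processing notes). They deposited a signal per gene: read numbers scaled by the liver's DESeq2 size factor. How reads were assigned to genes, with which annotation and with or without strand, is not given in the sources used here. Every value (100%, tolerance 0.001) was a whole multiple of 1 read, so reads were recovered, with totals from 26280884 to 33313914. The table of the authors' own DESeq2 comparison (fold changes and p-values) was not used.

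Groups were compared in R 4.3.3 by limma 3.58.1 (lmFit, then eBayes with trend) on log2(normalized count + 1), without covariates, for the 15352 genes with a mean of at least 5, at a Benjamini-Hochberg adjusted p under 0.05. The model was tested on simulated data. Livers are separate animals, and the 95% intervals and limma p-values rest on their spread. eBayes draws the spread of each gene toward a trend over all genes. An interval can therefore be wider or narrower than the gene's own livers would give. Single genes were compared with two-sided exact permutation tests. Alternatives were edgeR 4.0.16 and DESeq2 1.42.0 on recovered reads, pseudocounts of 0.5 and 5, no minimum or a minimum of 20, quantile, TMM and same-total scaling, limma without trend, with robust eBayes or arrayWeights, the replicate block, the animal series as a covariate, each liver left out, an adjusted p under 0.1, and copies added together. Leaving out Brap F/F replicates 2 and 3 together was chosen after seeing the data. Gene positions, transcript lengths and coding sequences came from GENCODE (mm10), promoters from RefSeq (GRCm38.p6), and 50-base windows were compared between the exons of all annotated genes. Biopython 1.88, numpy 2.4.6, pandas 2.3.3 and matplotlib 3.10.9 were used.

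The members and lists were chosen with earlier results of these data known. Members named are those past the threshold, those without overlap between the groups, the 12 with the highest level per kilobase, and those with a well known role in liver or plasma. Of other genes, Brap, list members past the threshold and at most the 3 most abundant per list are named. Further names in counts of 5 or fewer were chosen after their values were seen. The values of 1 tested member are not reported here.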

Additional observations from a re-analysis of the deposited data

Results flagged for a closer look

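Within each group of 4 livers, the highest and the lowest normalized count of every tested member were set against the others (Dixon's test, 64 groups). Chance flags about 1 in 20 groups, or 3.2 of 64, and 3 stood apart. Serpina6 had 2939 normalized counts in Brap LKO replicate 4, against 5809.6 to 5873 in the other Brap LKO livers. Serpina9, known from germinal centre B cells, had 70.7 normalized counts (68 reads) in the same liver, against 16.2 to 22.8. Serpind1 had 18869 normalized counts in Brap F/F replicate 4, against 14779.9 to 14906 in the other controls.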

How the results depend on the processing

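Serpina7 and Serpina3m kept their direction and call in every setting run, except that copies added together give no value for Serpina3m alone. Serpine2 kept its direction in all 24 and lost its call in 2, without Brap LKO replicate 1 (adjusted p = 0.0615) and without Brap F/F replicate 2 (0.0517, both limma). With 1 liver left out, 2 to 3 members were called lower and 0 higher, and over all genes 11 (without Brap LKO replicate 1) to 178 (without Brap F/F replicate 4) were called higher and 4 (without Brap F/F replicate 2) to 54 (without Brap F/F replicate 4) lower, against 102 and 16. Counts of all genes called higher moved by more than 1.5 times with quantile normalization (62), the same total per liver (459, with the median of all genes at 0.15 and of members at 0.21), arrayWeights (185), DESeq2 (455) and an adjusted p under 0.1 (283). Counts of genes called lower did so with a minimum mean of 20 (9), arrayWeights (39), DESeq2 (170), an adjusted p under 0.1 (64) and without Brap F/F replicates 2 and 3 (48). Serpinh1 was the 1 member called higher with the same total per liver, with DESeq2, with an adjusted p under 0.1 and with the replicate block. In that blocked fit, 80 genes were called higher and 15 lower. The replicate numbers share only a name: the deviations of same-numbered livers correlated by -0.13, 0.00, 0.20 and 0.29, and the block result is not read as a pairing. Without Brap F/F replicates 2 and 3, 4 members were called lower (the 4th was Serpina3n, for which these are the 2 lowest controls). Of 750 values of members under alternatives, 689 kept their direction and their side of the threshold, and 55 that were never called changed sign. The cause of these moves was not tested. Depth limits Serpina3c, Serpina5, Serpina9, Serpini1 and the 12 untested members, with few reads in each liver.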
